A study of Mus musculus with 10 samples.

Results

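Superoxide and peroxides are removed in the lung by a small group of enzymes, and their transcripts were compared between mice that breathed cigarette smoke and mice that breathed room air. The group holds 10 genes: the superoxide dismutases Sod1, Sod2 and Sod3, catalase (Cat), the glutathione peroxidases Gpx1, Gpx2, Gpx3 and Gpx4, and the peroxiredoxins Prdx1 and Prdx6. They were chosen by name. Every probe whose gene name in the scanner files, or whose current symbol, was on this list was kept, which gave 15 of the 41174 probes of the array and 10 of its 27670 gene names. Sod1 had 3 probes, Prdx6 had 4, and each of the other 8 genes had 1.

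Lungs came from 10 female BALB/c mice, an inbred strain, bought at 6 to 8 weeks of age. Over 8 weeks, 5 of them inhaled smoke, with the whole body exposed, on 5 days of each week, in 2 sessions a day of 50 min, each with 12 unfiltered cigarettes. The other 5 were kept in room air. RNA of each lung was hybridised to 1 Agilent whole mouse genome array beside a reference RNA, so each value below is the log2 ratio of the lung signal over the reference signal of a probe. A whole lung mixes all its cell types.

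The tissue and the channels were checked first. Sftpc, the surfactant protein of alveolar type 2 cells, had a log2 ratio of 5.12 to 6.23 over the 10 arrays, and Scgb1a1, a secretory protein of club cells, had 5.79 to 7.08. The Y chromosome gene Ddx3y lay at -2.87 to -1.65. Red was therefore read as lung, and green as the reference, which holds male RNA. Of the defining genes of 15 cell type lists, none measured was below background on every array.

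Superoxide dismutases turn superoxide into hydrogen peroxide and oxygen. Sod1 is the copper and zinc enzyme of the cytosol, Sod2 the manganese enzyme of mitochondria, and Sod3 a secreted enzyme bound to the extracellular matrix and abundant in lung. Catalase in peroxisomes, glutathione peroxidases and peroxiredoxins then break down hydrogen peroxide, the peroxidases with glutathione and most peroxiredoxins with thioredoxin as the reducing partner. Cigarette smoke carries oxidants and calls phagocytes that make superoxide into the lung, which is why these enzymes are followed in smoke-exposed tissue.

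Of the 10 genes, 1 passed limma's test at an adjusted p threshold of 0.05, a rise of Gpx1, against 7.06% of all 41173 probes tested (2906 probes, 1793 higher and 1113 lower with smoke). The log2 differences of the other 9 genes lay between -0.08 and 0.84, with 4 of the 9 higher and 5 lower in the mean of the smoke group. The median of the 10 genes was 0.10, and that of all probes was -0.00. In 2 of the 10 genes, Gpx1 and Prdx1, the lowest smoke value was higher than the highest room air value, which held for 4.09% of the 41133 probes with a value on all arrays.

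Room air replicate 1 stood apart from the other 4 room air arrays. It was the far value of its group, by Dixon's ratio for 5 samples, in 3.12% of all probes, against 0.549% to 1.85% for each of the other 9 arrays. Values without it were therefore computed for every gene. Without it, 4 of the 10 genes passed the threshold, namely Sod2, Gpx1, Gpx2 and Prdx1, against 8.89% of all probes. With the replicate number as a block, which pairs the smoke and the room air array of each slide, Gpx1, Gpx2 and Prdx1 passed, 3 of 10 genes against 12.2% of all probes.

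**Figure D1:**
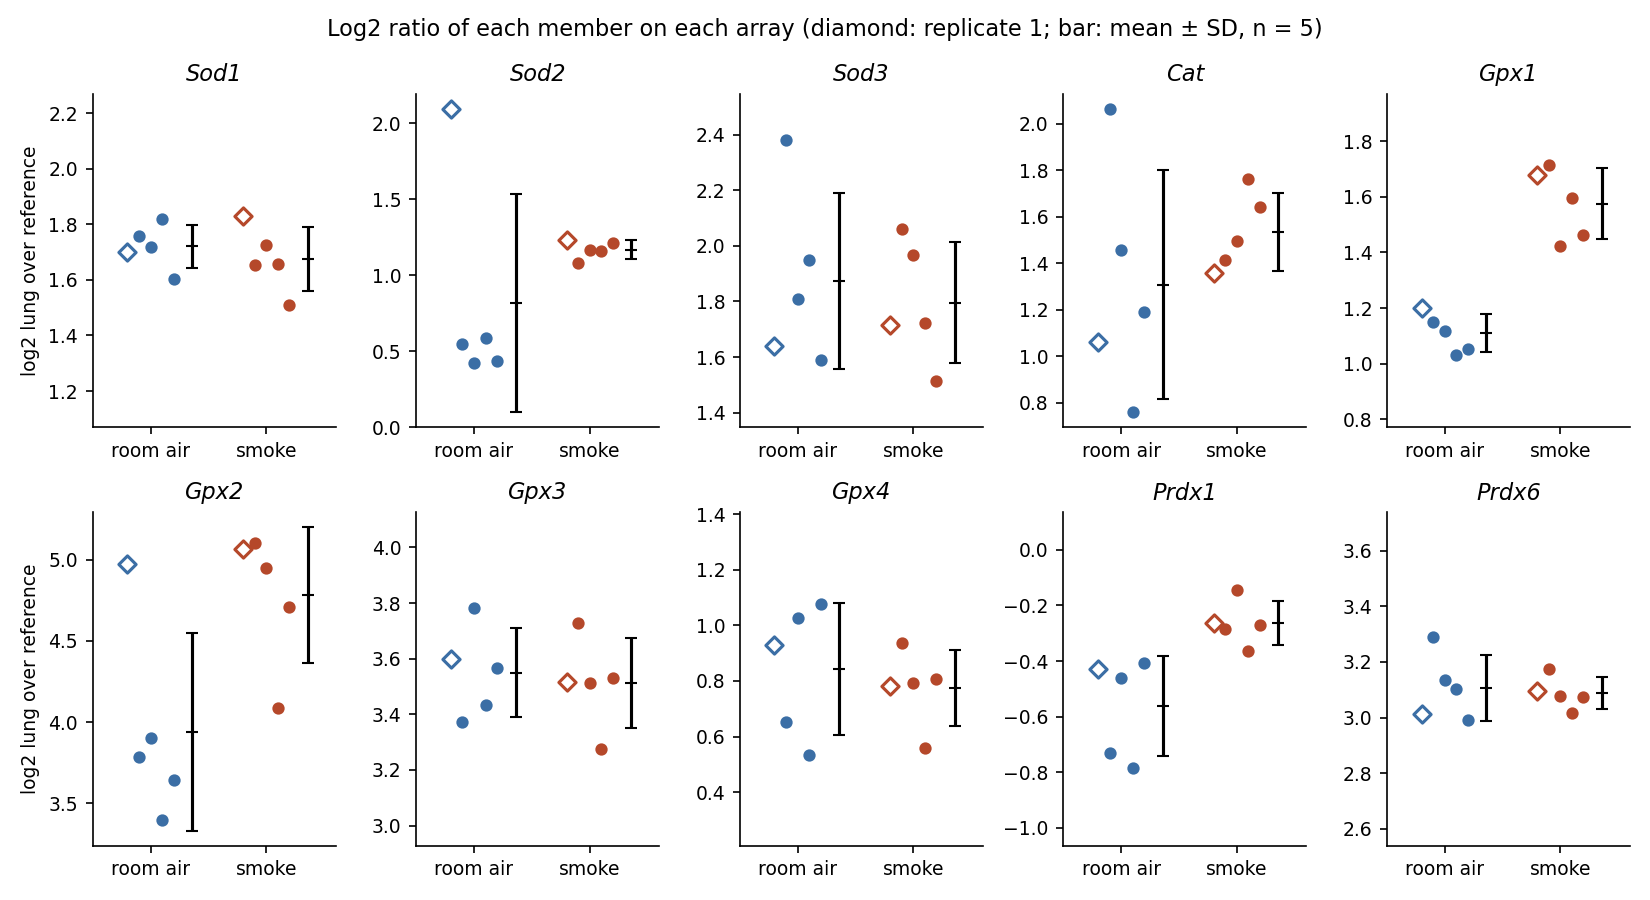
Each panel shows 1 gene, by the probe brightest in lung, with the log2 ratio of lung over reference on the vertical axis (scales differ between panels) and the 5 room air and 5 smoke arrays side by side; diamonds are replicate 1 of each group and bars the mean ± SD. Gpx1 and Prdx1 show no overlap between the groups, and room air replicate 1 lies apart in Sod2 at 2.10 and high in Gpx2 at 4.97.

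Gpx1, the glutathione peroxidase of cytosol and mitochondria, gave log2 ratios of 1.20, 1.15, 1.12, 1.03 and 1.05 on room air arrays 1 to 5 and of 1.68, 1.71, 1.42, 1.59 and 1.46 on smoke arrays 1 to 5. The room air values were close together and all lay below the lowest smoke value. Means were 1.11 ± 0.07 with room air and 1.58 ± 0.13 with smoke (SD, n = 5 each), a rise of 1.38-fold (log2 0.47 ± 0.07 SE, 95% interval 0.32 to 0.61, adjusted p = 0.00128). Within the 5 slides the smoke array was higher by 0.48, 0.56, 0.31, 0.56 and 0.41, so every slide showed the direction. The reference signal of the probe, scaled to the 75th percentile of each array, was 4.93 ± 0.18 and 4.96 ± 0.24, and thus the difference lay in the lung channel. With the lung channel alone the log2 difference was 0.57 by the 75th percentile and 0.50 by quantile normalization, but the call was lost (adjusted p = 0.155 and 0.0506). It was also lost by the exact Wilcoxon test, in which no probe of the array passed.

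The probe of Gpx1 is shown because the only call in the group rests on it. It is 60 bases long and lies on the plus strand at chr9:108073279-108073338 in mm7, the build of the array design. Its letters, all in lower case since no part of it was searched, read as follows.

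Gpx1 probe: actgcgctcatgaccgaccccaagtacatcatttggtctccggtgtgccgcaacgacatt

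Gpx2, the glutathione peroxidase known from gut and other epithelia, had the widest difference of the 10 genes. Its log2 ratios were 4.97, 3.79, 3.90, 3.40 and 3.64 on room air arrays 1 to 5 and 5.06, 5.10, 4.95, 4.09 and 4.71 on smoke arrays 1 to 5. Room air replicate 1 thus lay among the smoke arrays, while the other 4 room air arrays lay below all 5 smoke arrays. Over all arrays the mean was 3.94 ± 0.61 and 4.78 ± 0.42 (SD, n = 5 each), 1.79-fold higher with smoke, and it did not pass (log2 0.84 ± 0.28 SE, 95% interval 0.23 to 1.46, adjusted p = 0.111). Without room air replicate 1 the difference was 2.14-fold (adjusted p = 0.00400), and with the replicate block on all arrays the adjusted p was 0.0112. The within-slide differences were 0.09, 1.32, 1.04, 0.69 and 1.07, all in the same direction and smallest on the slide of room air replicate 1.

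The reference signal of Gpx2 was weak, at 1.88 to 4.10 times the local background, and was itself higher on the smoke arrays (-1.40 ± 0.55 against -2.02 ± 0.56, log2 relative to the 75th percentile). In the lung channel alone the values were 3.51, 2.35, 1.98, 2.71 and 2.29 with room air and 3.85, 4.15, 3.56, 3.99 and 3.84 with smoke. There the groups did not overlap, the difference was 1.31 by the 75th percentile (adjusted p = 0.0222) and 1.24 by quantile normalization (adjusted p = 0.00994), and Gpx2 was the only gene of the 10 to pass. On the ratio Gpx2 also passed when the arrays were scaled to each other (adjusted p = 0.0467). The means of Gpx1 and Gpx2 were higher with smoke in each of the 21 other settings run on the scanner files.

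Gpx3, the secreted plasma-type enzyme, and Gpx4, which reduces lipid hydroperoxides in membranes, gave small differences. The ratio of Gpx3 was 3.55 ± 0.16 with room air and 3.51 ± 0.16 with smoke, a difference of -0.04 with an interval of -0.24 to 0.17 (adjusted p = 0.914). Gpx4 had 0.84 ± 0.24 and 0.78 ± 0.14, a difference of -0.07 with an interval of -0.31 to 0.17 (adjusted p = 0.855). These intervals allow a fold of 0.846 to 1.12 for Gpx3 and of 0.808 to 1.13 for Gpx4. The sign of Gpx3 changed when the arrays were scaled to each other. That of Gpx4 did not, and changed only in the lung channel alone, scaled to the 75th percentile.

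Prdx1, the cytosolic peroxiredoxin, gave -0.43, -0.73, -0.46, -0.78 and -0.41 on room air arrays 1 to 5 and -0.26, -0.28, -0.14, -0.36 and -0.27 on smoke arrays 1 to 5. All 5 smoke arrays lay above the room air arrays, the lowest of them by a narrow margin (-0.36 against -0.41). The smoke mean was 1.23-fold higher (log2 0.30 ± 0.08 SE, interval 0.12 to 0.48) and missed the threshold with an adjusted p of 0.0540. It passed with the replicate block (adjusted p = 0.0158), without room air replicate 1 (1.26-fold, adjusted p = 0.0329), without room air replicate 5 (adjusted p = 0.0436), and when dim probes were left out (adjusted p = 0.0473). Within the slides the smoke array was higher by 0.17, 0.45, 0.32, 0.42 and 0.14. Its reference signal was 5.03 ± 0.08 and 5.03 ± 0.06, equal in both groups.

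Prdx6 reduces phospholipid hydroperoxides, uses glutathione and is abundant in alveolar type 2 cells. Its brightest probe had 3.11 ± 0.12 with room air and 3.09 ± 0.06 with smoke (difference -0.02, interval -0.15 to 0.12, adjusted p = 0.939). The other 3 probes had differences of 0.03, -0.23 and 0.02 with adjusted p of 0.934, 0.721 and 0.946. They lie on the minus strand of chromosome 1 at 6068 and 7758 bases upstream and 621 bases downstream of the brightest probe in mm7. The 4 probes did not disagree in any call, and the widest spread was that of the third, whose reference signal was 2.13 to 3.72 times background.

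**Figure D2:**
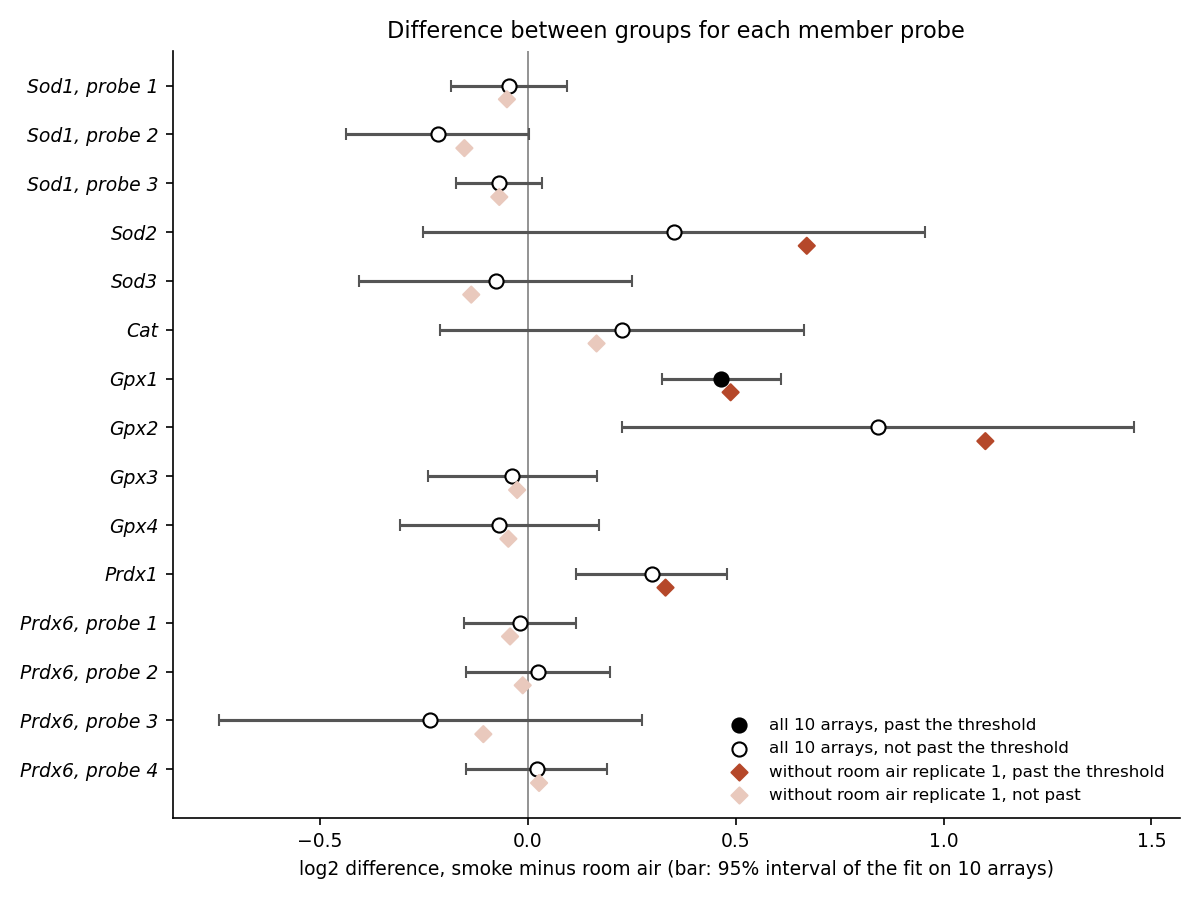
Log2 difference between smoke and room air for all 15 probes, with the 95% interval of limma's fit on 10 arrays (circles, filled when past the threshold) and the difference without room air replicate 1 (diamonds, dark when past). With all arrays Gpx1 alone passes; without that array Sod2, Gpx2 and Prdx1 pass too, and the difference of Sod2 moves from 0.35 to 0.67.

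Among the superoxide dismutases, Sod2 depended on 1 array. Its log2 ratios were 2.10, 0.55, 0.42, 0.59 and 0.44 on room air arrays 1 to 5 and 1.23, 1.08, 1.17, 1.16 and 1.21 on smoke arrays 1 to 5. Room air replicate 1 was the highest of all 10 arrays, while the other 4 room air arrays lay below every smoke array. Over all arrays the difference was 0.35 ± 0.27 SE, with an interval of -0.25 to 0.95 and an adjusted p of 0.614. Without that array it was 1.59-fold (log2 0.67, adjusted p = 2.20e-05), and with the whole of slide 1 left out and the replicate block, a setting chosen after seeing the data, it was 0.66 (adjusted p = 0.000127). The within-slide differences were -0.86 on slide 1 and 0.53, 0.74, 0.57 and 0.78 on slides 2 to 5. The reference signal was 4.64 ± 0.13 with room air and 4.64 ± 0.09 with smoke, and the room air SD of 0.72 was larger than that of 99.5% of all probes.

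Room air replicate 1 also differed from its group in marker genes. Over the 7 measured genes of the neutrophil list, of which S100a9 was the most abundant, the summed lung signal was 183 times the 75th percentile on room air replicate 1, against 37.6, 27.8, 32.7 and 46.3 on the other room air arrays. On the smoke arrays it was 86.8, 64.7, 47.3, 54.8 and 63.5. In the list, 2 of 7 genes passed, Mmp8 and Camp, both higher with smoke, and 3 did so without room air replicate 1, where the median difference was 0.52 in place of 0.22. All 7 measured genes were above background on some array, and Ly6g was not measured. The basal and goblet cell list, led by Muc5b, had 3.23 on that array, 0.824 to 1.40 on the other room air arrays and 2.28 to 2.74 with smoke. The fibroblast list, led by Col1a2, was lowest there (71.8, with 87.7 to 114 on the other 9 arrays). The part of any of these cell types in the values of Sod2 and Gpx2 was not tested.

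**Figure D3:**
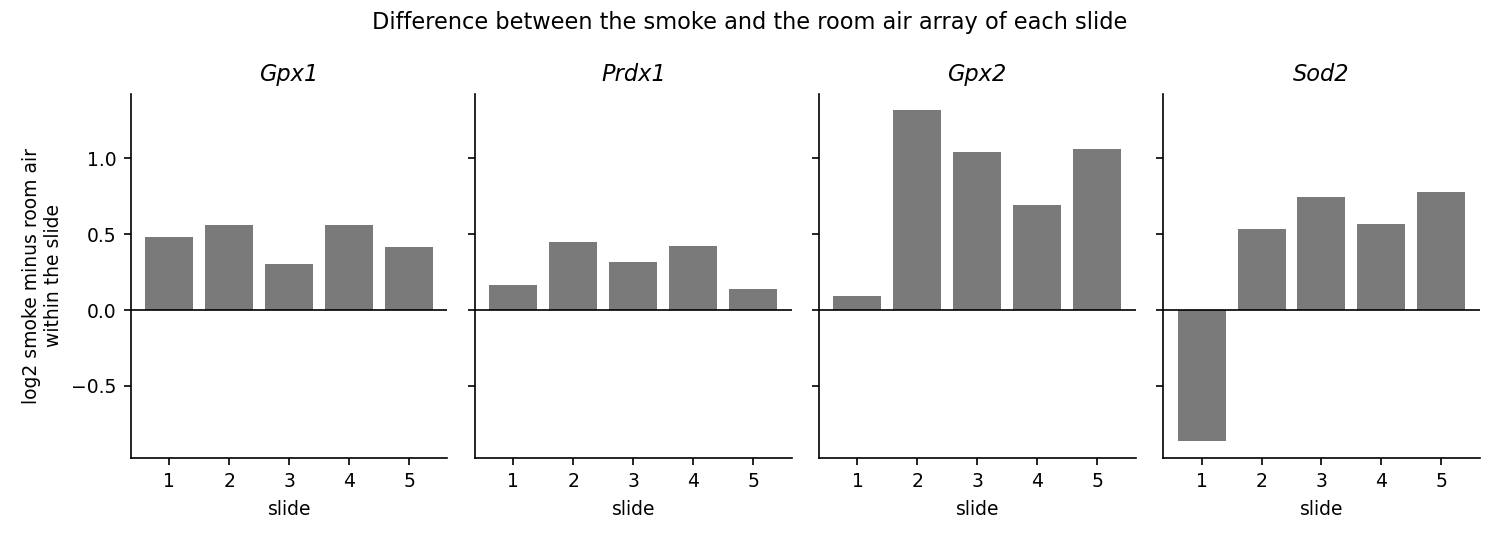
For 4 genes, the bars give the log2 ratio of the smoke array minus that of the room air array on each of the 5 slides, which are named by their replicate number. Gpx1, Prdx1 and Gpx2 are above 0 on all 5 slides, and Sod2 on slides 2 to 5 with -0.86 on slide 1.

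The brightest probe of Sod1 had 1.72 ± 0.08 with room air and 1.68 ± 0.12 with smoke (SD, n = 5 each), a difference of -0.04 with an interval of -0.18 to 0.10 (adjusted p = 0.830), which allows a fold of 0.880 to 1.07. The other 2 probes lie 2316 and 3224 bases upstream on the plus strand of chromosome 16 in mm7. They were dim, at 2.18 to 4.47 and 1.20 to 1.86 times background in lung, against 1145 to 2595 times for the brightest. Their differences were -0.22 (adjusted p = 0.287) and -0.07 (adjusted p = 0.535), so no probe passed, although the sign of the brightest changed with the scaling.

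Sod3 had 1.87 ± 0.32 with room air and 1.80 ± 0.22 with smoke, a difference of -0.08 with an interval of -0.41 to 0.25 (adjusted p = 0.887). Its probe was at least 3.43 times background in lung but only 0.906 to 1.24 times in the reference, which limits the precision of the ratio. In the lung channel alone it was -1.37 ± 0.44 and -1.49 ± 0.36, relative to the 75th percentile.

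Catalase gave 1.06, 2.06, 1.46, 0.76 and 1.19 with room air and 1.36, 1.41, 1.49, 1.76 and 1.64 with smoke. Room air arrays 2 and 4 were the highest and the lowest of all 10, and the smoke arrays lay between them. The difference was 0.23, with an interval of -0.21 to 0.66 and an adjusted p of 0.672, and the within-slide values ran from -0.65 to 1.00.

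The genes that surround these enzymes were counted in 9 lists. Of their 84 genes, all measured, 19 passed and all 19 rose, which is 22.6% against 7.06% of all probes; the median difference was 0.08 against -0.00. With the replicate block 23 of the 84 passed, 21 higher and 2 lower, against 12.2% of all probes. The lists were chosen with earlier results known, so the share is a description.

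No relative of the members passed by limma, with 0 of 4 other glutathione peroxidases and 4 of 4 other peroxiredoxins at an unadjusted p under 0.05, a threshold met by 18.2% of all probes and by 3 of the 10 members. Gpx7 and Gpx8 of the endoplasmic reticulum had differences of -0.11 and -0.12 (adjusted p = 0.732 and 0.509), and Gpx8 passed without room air replicate 1 (-0.19, adjusted p = 0.0331). Gpx5 and Gpx6 were well above background in lung on only 2 and 1 of 10 arrays, so their differences of -0.01 and 0.11 carry little. The 4 other peroxiredoxins all had higher means with smoke, and on all 5 slides: Prdx2 by 0.16 (adjusted p = 0.0635), the mitochondrial Prdx3 by 0.15 (adjusted p = 0.185), Prdx4 of the secretory pathway by 0.16 (adjusted p = 0.207) and Prdx5 by 0.25 (adjusted p = 0.104). Prdx2 passed with no background subtraction (adjusted p = 0.0337) and by the scanner's own log ratio (adjusted p = 0.0410). Prdx5 passed with the replicate block (adjusted p = 0.0165) and without room air replicate 5 (adjusted p = 0.0324).

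All 7 genes of the glutathione supply list rose, with a median difference of 0.67. Slc7a11, the cystine transporter, had a lung signal clear of background on only 2 of 5 room air arrays and on 5 of 5 smoke arrays. It rose (adjusted p = 6.51e-05), but the size is uncertain, since the log2 difference ran from 0.75 to 5.36 over 22 other settings. Gclc and Gclm, the subunits of the enzyme that limits glutathione synthesis, rose 2.09-fold and 1.91-fold (adjusted p = 0.00798 and 2.98e-06), and Pgd, which makes NADPH, rose 1.59-fold (adjusted p = 0.000202). In the thioredoxin and sulfiredoxin system 4 of 12 genes rose, 8 did not pass, and the median was 0.09. Txnrd1, which reduces thioredoxin, rose 2.33-fold (adjusted p = 0.000802), and Srxn1, which restores overoxidised peroxiredoxins, rose 1.87-fold (adjusted p = 0.000136).

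Genes that deliver metals or build selenoproteins gave a mixed picture. In copper delivery 2 of 7 genes rose. The copper importer Slc31a1 rose by 1.47-fold (adjusted p = 0.00354) and the copper chaperone Atox1 by 1.22-fold (adjusted p = 0.0353, a call lost in 12 of 21 other settings). In the same list Atp7a had -0.26 (adjusted p = 0.236) and passed as lower with the replicate block (adjusted p = 0.0165). None of the 9 genes of selenoprotein synthesis, on which the glutathione peroxidases Gpx1 to Gpx4 depend, passed by limma, with 4 of the 9 at an unadjusted p under 0.05. The 2 with the smallest adjusted p were Lrp8 (0.37, adjusted p = 0.124) and Sepsecs (-0.21, adjusted p = 0.139), and Lrp8 passed with the replicate block (adjusted p = 0.0123). Selenop passed as lower without room air replicate 1 (-0.29, adjusted p = 0.0298), and had -0.22 with all arrays (adjusted p = 0.230). In the peroxisome list Abcd3, a transporter of the peroxisomal membrane, had 0.14 (adjusted p = 0.0611).

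In the list of superoxide and peroxide sources 5 of 16 genes rose and none fell, with a median of 0.06. Among them, Ncf4 rose 2.45-fold (adjusted p = 0.00220), Cyba 1.96-fold (adjusted p = 0.000230) and Ncf1 1.74-fold (adjusted p = 0.00162), all 3 parts of the phagocyte NADPH oxidase. Nox1 was not above background on any array. Of the 5 channels that carry hydrogen peroxide none passed by limma, with 0 at an unadjusted p under 0.05; Aqp3 had 0.65 (adjusted p = 0.326) and Aqp5 -0.23 (adjusted p = 0.434). Aqp3 was another gene in which room air replicate 1 stood high, and it passed without that array (1.99-fold, adjusted p = 0.00172), while Aqp5 passed with the replicate block (adjusted p = 0.0266).

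**Figure D4:**
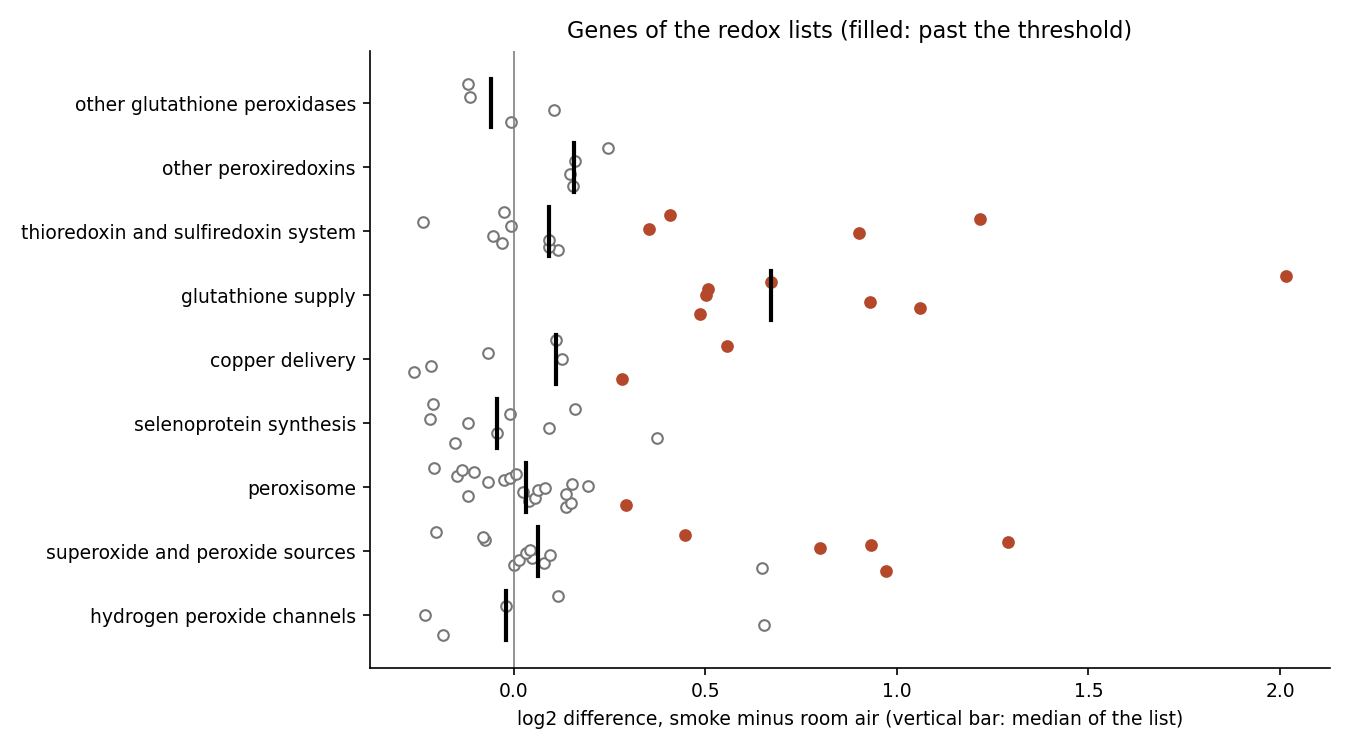
Each point is the log2 difference between smoke and room air of 1 of 84 genes in 9 lists, filled when past the threshold, and the vertical bars are list medians. All 7 genes of glutathione supply are filled, none of the other glutathione peroxidases or peroxiredoxins is, and no filled point lies below 0.

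Cell type markers moved with the groups as well. The 9 measured genes of the alveolar macrophage list, led by Chil3, had a summed lung signal of 63.2, 55.8, 57.4, 54.9 and 54.5 times the 75th percentile on room air arrays 1 to 5 and of 197, 210, 196, 181 and 221 on smoke arrays 1 to 5. Of these genes 6 rose, among them Cd68 by 4.16-fold (adjusted p = 6.92e-09) and Itgax by 2.53-fold (adjusted p = 2.56e-07), and none fell. The other 3 did not pass: Fabp4 had -0.25 (adjusted p = 0.780), Car4 -0.09 (adjusted p = 0.832) and Siglecf 0.25 (adjusted p = 0.312). All 9 were above background on every array, and Ear2 was not measured. Gpx1, Prdx1, Cyba, Ncf1 and Ncf4 were higher on the same arrays, and the part of macrophage number in their values was not tested. In whole lung, more cells of a type and more RNA per cell cannot be told apart.

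Other lists moved less or fell. Of the monocyte list 2 of 4 genes rose and of the red blood cell list 1 of 5, Slc4a1, with summed signals of 1334 to 1992 with room air and 1744 to 2666 with smoke. In the endothelial, smooth muscle and cardiac muscle lists 1 gene each fell and in the fibroblast list 2. The cardiac gene, Tnnt2, lost its call without room air replicate 1 (adjusted p = 0.0781). Summed signals of the endothelial list were 142 to 181 with room air and 93.1 to 114 with smoke. Those of the alveolar type 1 list were 227 to 269 and 179 to 217, and of the cardiac muscle list 75.7 to 116 and 51.3 to 77.8. The sums are of the lung channel alone and weigh bright genes most, while the calls are on the ratio. On the ratio the median differences of these lists were -0.15, -0.11 and -0.41. The ciliated list had a mean sum of 47.3 with room air and 38.1 with smoke, but a median ratio difference of 0.11. The sums of the alveolar type 2 and club cell lists had higher means with smoke and overlapped. By limma no gene passed in the lists of alveolar type 2 cells (0 of 7 at an unadjusted p under 0.05), alveolar type 1 cells (1 of 6), club cells (1 of 4), ciliated cells (0 of 6), basal and goblet cells (1 of 5), B cells (0 of 5) and T cells (1 of 6). With the replicate block, 2 endothelial, 4 smooth muscle, 3 cardiac muscle, 2 fibroblast and 1 alveolar type 1 genes passed as lower. As higher, 1 alveolar type 2, 1 club, 2 basal and goblet and 2 T cell genes passed. Without room air replicate 1, Muc5b (2.00-fold, adjusted p = 0.00758) and Agr2 (2.24-fold, adjusted p = 0.00143) of the basal and goblet list passed as higher.

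**Figure D5:**
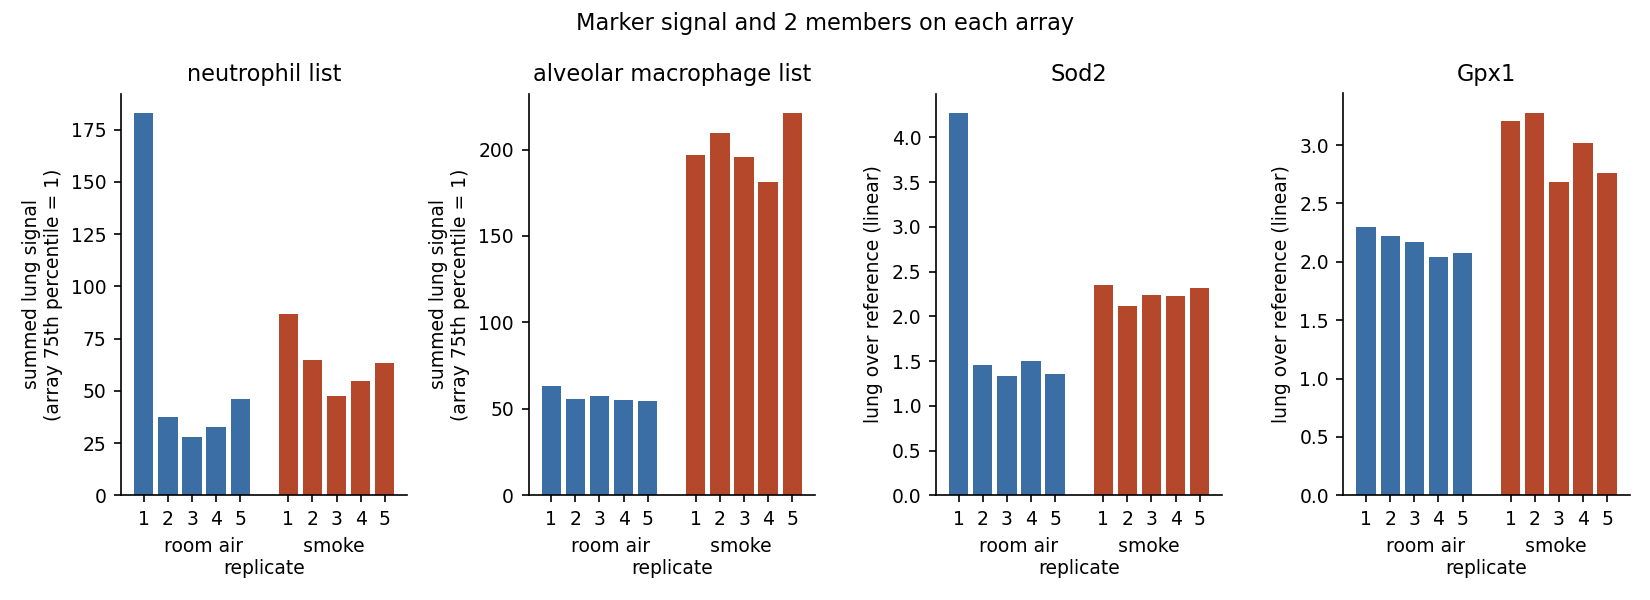
The left panels give the summed lung signal of the neutrophil and alveolar macrophage lists on each array, in units of the array's 75th percentile, and the right panels the linear ratio of lung over reference for Sod2 and Gpx1. Room air replicate 1 is the highest array of the neutrophil list at 183 and of Sod2, while the macrophage list is at 54.5 to 63.2 with room air and 181 to 221 with smoke.

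The 5 genes whose ratio followed Gpx1 most closely over the 10 arrays, among 17134 genes above background in lung on all arrays, were Atp6v0d1 (Pearson r = 0.98), Esd (r = 0.97), LOC671203 (r = 0.97), Golm1 (r = 0.97) and Capn15 (r = 0.96). All 5 also passed with higher values in smoke, so their likeness includes the group difference. Atp6v0d1 is a subunit of the proton pump of lysosomes and Esd an esterase of formaldehyde removal. No gene of the group fell past the threshold, so no such list exists for a fall.

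The start regions of the genes were searched for TGACNNNGC on both strands, the core letters of the antioxidant response element bound by the factor Nrf2. In RefSeq windows of 300 bases (250 before and 50 after a gene's start, GRCm38.p6), 12.4% of 32851 windows and 14.0% of 27025 genes held it. Of the 10 members 8 had a window, and 2 of these held the letters, Prdx1 and Sod1; Prdx6 and Sod3 had no window. Of the 19 listed genes that passed, 13 had a window and 6 of these held it. Of the 65 that did not pass, 54 had a window and 5 of these held it. The lists were chosen with earlier results known and split by calls in the same data, so both shares are a description. Gpx1, Gpx2 and Sod2 had no match in their windows. A match is a description of letters and not a binding site.

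The 250 bases before the start are shown for the members with a match, of which Prdx1 was higher on all smoke arrays and Sod1 was not, and for 2 listed genes that rose, Txnrd1 and Gclm. Capitals mark the match, which in all 4 lies on the strand opposite to the gene, so it reads GCNNNGTCA here. It begins 133 bases before the start in Prdx1, 56 in Sod1, 92 in Txnrd1 and 134 in Gclm. All 4 windows are on the plus strand of GRCm38.p6: Prdx1 at chr4:116685349-116685598, Sod1 at chr16:90220512-90220761, Txnrd1 at chr10:82858956-82859205 and Gclm at chr3:122245307-122245556.

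Prdx1 promoter: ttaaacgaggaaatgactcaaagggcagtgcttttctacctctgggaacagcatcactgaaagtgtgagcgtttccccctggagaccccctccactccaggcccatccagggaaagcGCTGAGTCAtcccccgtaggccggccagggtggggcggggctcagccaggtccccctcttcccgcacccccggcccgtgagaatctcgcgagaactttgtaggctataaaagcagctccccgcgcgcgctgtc

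Sod1 promoter: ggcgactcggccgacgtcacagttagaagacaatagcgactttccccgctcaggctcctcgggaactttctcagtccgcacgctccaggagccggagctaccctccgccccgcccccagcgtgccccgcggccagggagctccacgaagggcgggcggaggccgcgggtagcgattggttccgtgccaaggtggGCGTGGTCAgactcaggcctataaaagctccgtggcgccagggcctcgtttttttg

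Txnrd1 promoter: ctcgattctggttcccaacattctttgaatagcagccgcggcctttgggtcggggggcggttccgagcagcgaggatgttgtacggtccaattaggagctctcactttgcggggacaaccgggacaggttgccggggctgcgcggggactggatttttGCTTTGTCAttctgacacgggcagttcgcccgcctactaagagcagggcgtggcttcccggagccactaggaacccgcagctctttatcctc

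Gclm promoter: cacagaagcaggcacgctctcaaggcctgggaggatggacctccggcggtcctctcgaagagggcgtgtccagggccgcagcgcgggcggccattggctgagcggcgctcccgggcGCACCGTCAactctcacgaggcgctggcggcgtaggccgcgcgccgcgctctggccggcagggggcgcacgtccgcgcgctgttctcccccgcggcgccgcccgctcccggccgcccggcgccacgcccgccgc

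Every direction above rests on the sample titles, with each scanner file given the group of the sample it was deposited under. The deposited series table names the same samples. It holds the values of each smoke array under the room air sample of the same number, and the reverse. All 15 probes were counted as well above background in lung on all 10 arrays, 12 of them in the reference too, and none had a saturated spot. The lowest of these lung signals was only 1.20 times background. The smoke array lay at the same place on every slide and the room air array at another, so place on the slide and group cannot be told apart.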

How the data were processed

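The authors scanned the arrays and extracted spot intensities with Agilent Feature Extraction, version 9.1 by the labels and 9.5.3.1 per the file headers. The log10 ratio in the deposited files is the scanner software's own ratio of dye-normalized processed signals, per the file headers. The log2 values of the deposited series table equal the mean over both channels of the log2 median signal minus background. Each column, however, matches the array of the same number in the other group. Each scanner file was given the group in the title of its sample.

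From the mean signals, R 4.3.3 and limma 3.58.1 applied normexp background correction (offset 50), loess within arrays, averaging of replicate spots (43379 spots, 41174 probes), and a linear fit with empirical Bayes and Benjamini-Hochberg adjustment over all probes; outlier spots were set missing and control spots dropped. The pipeline was tested on simulated data. Probes were named by accession (22951), current symbol (6659), synonym (3109) or the file's name (8455). A gene is represented by its probe brightest in lung. Labels name 1 dye; channels were assigned from lung and Y chromosome genes.

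Arrays of the same number share a slide. After removal of group means their correlation was 0.157 to 0.550, against a median of -0.124 and a highest value of 0.205 for different numbers; the 0.157 of slide 1 lies within that range, and the other 4 slides lie above it. On this ground the replicate block was also fitted. The members and the gene lists were chosen with earlier results of these data known. Named genes are all members, the other glutathione peroxidases and peroxiredoxins, and from each other redox list the genes past the threshold with a fold over 1.5 or, where there was none, the 2 with the smallest adjusted p; further genes are named as examples of their list. Alternatives covered the test, background correction, channel, scaling, dim probes, outlier spots, the replicate block and leaving out each array; leaving out slide 1 with the block was chosen after seeing the data.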

Additional observations from a re-analysis of the deposited data

Results flagged for a closer look

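Of 82 groups of 5 arrays tested for members and named genes, 5 held a far value by Dixon's ratio, 6.10% where chance gives about 1 in 20, and 4 of the 5 were room air replicate 1.

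Sod2 on room air replicate 1 was 2.10, with the next array at 0.59 and the lowest at 0.42. Txnrd1 on the same array was -0.0442, with the next at -0.79. Gclc there was 1.87, with the next at 0.94, and Aqp3 was 1.84, with the next at 0.35. Without it Sod2 and Aqp3 passed the threshold, and Txnrd1 and Gclc passed with and without it.

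Prdx3 on smoke replicate 4 was -0.98, below the next array at -0.86 and the highest at -0.83.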

How the results depend on the processing

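With each array left out in turn, 1 to 4 of the 10 members passed, 13 to 22 of the 84 listed genes and 2102 to 3660 of all probes. The 4 came without room air replicate 1 (Sod2, Gpx1, Gpx2, Prdx1), and without room air replicate 5 the count was 2 (Gpx1, Prdx1), with 8.89% and 6.05% of all probes. Gpx1 passed in each of these settings, with a log2 difference of 0.43 to 0.50.

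The exact Wilcoxon test called 0 members, 0 listed genes and 0 probes, since the smallest adjusted p of any probe there was 0.115; at an unadjusted p under 0.05 it gave 2 members, 25 listed genes and 5446 probes. With the replicate block 3 members (Gpx1, Gpx2, Prdx1) and 5019 probes (12.2%) passed. Leaving out slide 1 with the block, chosen after seeing the data, gave 4 members (Sod2, Gpx1, Gpx2, Prdx1), 30 listed genes and 6088 probes (14.8%). With bright probes only, 2 members passed (Gpx1, Prdx1), with 10.5% of all those probes. With ratios scaled between arrays 2 passed (Gpx1, Gpx2), with 5.84% of all probes, and with a gene's probes averaged 2 (Gpx1, Prdx1), with 7.86% of all genes. A fold over 1.5 as a further condition gave 0 by limma, with 1.92% of all probes. The deposited table with its columns as named gave 0 by limma, with 0.0599% of its 26701 probes, and 1 at an unadjusted p under 0.05, with 2.18%; it holds both channels averaged and the groups exchanged.

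The lung channel alone, scaled to the 75th percentile, called 1759 probes (4.27%), and of the members Gpx2 in place of Gpx1. Normexp with no offset called 1660 probes, 1216 higher and 444 lower, against 1793 and 1113 with the offset. No scaling moved the median of all probes by over 0.1.

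Gpx1 passed in 18 of 21 settings, with adjusted p from 0.00104 to 0.155. Gpx2 passed in 6 of 21 (9.36e-05 to 0.321), Prdx1 in 5 (0.00788 to 0.392), Sod2 in 2 (2.20e-05 to 0.805) and Cat in 0 (0.115 to 0.869).

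Some differences that did not pass changed sign. Sod1 was 0.0411 in the lung channel scaled to the 75th percentile, 0.0360 with no offset, 0.0344 scaled between arrays and 0.0161 by the scanner's own log ratio. Sod3 was 0.00490 scaled between arrays, and -0.15 to 0.0499 with single arrays left out. Gpx3 was 0.14 scaled between arrays, and -0.0920 to 0.0218 with single arrays left out. Gpx4 was 0.0119 in the lung channel scaled to the 75th percentile. Prdx6 was 0.0665 in that channel, 0.0271 with no offset, 0.13 scaled between arrays, 0.00879 by the scanner's own log ratio, and -0.0476 to 0.0272 with single arrays left out. Prdx6 probe 2 was -0.00880 in the lung channel by the 75th percentile, -0.0158 by quantile, -0.0219 without slide 1 and with the block, and -0.0172 to 0.0662 with single arrays left out. Prdx6 probe 4 was -0.0784 by the scanner's own log ratio and -0.0253 to 0.0675 with single arrays left out. Gpx5 was 0.29 in the lung channel by the 75th percentile, 0.0351 with no background subtraction, 0.0632 with no offset, and -0.0273 to 0.0114 with single arrays left out.

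Over all genes and settings, 261 passing and 511 other values kept direction and call, 28 passed where the reported value did not, 39 no longer passed and 32 changed sign.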
